A study of Mus musculus with 16 samples.

Results

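The genes followed here in mouse hippocampus are 10 effectors of the integrated stress response and of the unfolded protein response: Atf4, Atf3, Ddit3, Trib3, Ppp1r15a, Chac1, Asns, Sesn2, Xbp1 and Herpud1. They were chosen by name from these pathways, 10 of the 22180 genes that the arrays measured with a probe set of exactly 1 gene symbol, and each of them had a single such probe set. The 4 groups held 4 arrays each: Astro-D2KO mice after status epilepticus (SE), Astro-D2KO mice given saline, control mice after SE, and control mice given saline. Astro-D2KO mice (genotype + Flox D2/ + cre Glia) were made to lose the type 2 deiodinase, encoded by Dio2, in astrocytes, and control mice (wild type/ + cre Glia) carried the same glial cre without the floxed gene. No source used here names the promoter of that cre. All mice were C57BL/6, 8 to 10 weeks old, and all had lithium chloride at 10 mEq/kg. After 18 h the SE groups received pilocarpine at 65 mg/kg and the other groups received saline, so that pilocarpine and the seizures it provokes cannot be told apart. Nor does any give the time from injection to tissue collection. The titles name each array as a mouse and nothing further describes the replicates, so p-values measure the spread between these arrays, which may in part be technical.

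In the integrated stress response, 4 kinases phosphorylate the translation factor eIF2 under different stresses, which slows general protein synthesis and favours translation of the transcription factor ATF4. ATF4 then switches on genes for amino acid supply, redox balance and feedback, and, when stress lasts, genes tied to cell death. The unfolded protein response overlaps with it: the kinase PERK feeds into eIF2, while IRE1 splices the Xbp1 messenger and ATF6 is cut in the Golgi, and both of these raise chaperones and degradation factors of the endoplasmic reticulum (ER). In brain, both responses have been studied after seizures and ischaemia, and eIF2 phosphorylation also affects synaptic plasticity and memory. Probe set values report messenger levels alone: they show neither ATF4 protein, nor eIF2 phosphorylation, nor the spliced share of Xbp1.

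Values are log2 units of the deposited RMA table, so that a difference of 1 is a doubling. The 16 arrays were alike in scale, with medians between 5.77 and 5.82, and correlations between arrays ran from 0.972 to 0.994. Dio2, the targeted gene, stood at 8.91, 7.03, 7.17 and 7.12 in Astro-D2KO SE replicates 1 to 4, against 9.51, 9.11, 9.24 and 7.99 in control SE replicates 1 to 4. The library labelled Astro-D2KO SE replicate 1 was thus far above its group and the library labelled control SE replicate 4 below its own, and counts below are also given without both. Under saline Dio2 ran from 6.52 to 7.09 in Astro-D2KO mice and from 7.87 to 8.28 in control mice, without overlap. The 6 neuron markers averaged lower after SE without overlap, from 10.79 to 10.84 in Astro-D2KO SE and from 10.88 to 10.91 in Astro-D2KO saline, and from 10.74 to 10.89 in control SE and from 10.91 to 10.99 in control saline. Of them 1 rose and 1 fell in Astro-D2KO mice, and 0 rose and 2 fell in control mice. The 7 astrocyte markers averaged between 8.98 and 9.27 over all arrays, with groups that overlapped, and 1 fell in Astro-D2KO mice and 2 in control mice. The 3 measured blood cell markers averaged between 3.98 and 4.67, and 0 were called in Astro-D2KO mice and 1 rose in control mice. The 6 microglia markers ran lower after SE in both genotypes, from 6.81 to 7.14 in Astro-D2KO SE and from 7.37 to 7.59 in Astro-D2KO saline, and from 6.84 to 7.22 in control SE and from 7.38 to 7.55 in control saline. Of these 6 microglia markers 3 fell in each genotype and 0 rose. Of 6 endothelial markers 3 rose and 1 fell in each genotype. Their average was 7.38 in Astro-D2KO SE and 7.38 in Astro-D2KO saline, and 7.43 in control SE and 7.42 in control saline, with overlap. Of 5 oligodendrocyte markers 2 fell in Astro-D2KO mice and 0 passed in control mice. The 4 choroid plexus markers averaged from 6.28 to 9.22 over the arrays, with none called, and all 7 immediate early genes rose in each genotype. Over all genes, 7.49% rose and 12.6% fell in Astro-D2KO mice, and 8.42% rose and 13.7% fell in control mice. SE arrays stood entirely below saline arrays for 15.1% of all genes in Astro-D2KO mice and 13.7% in control mice. The part of these marker levels in the results below was not tested. In whole hippocampus, a change in the number of cells of a type and a change in RNA per cell cannot be told apart.

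The genes lie on 9 chromosomes of build GRCm38.p6, with positions from RefSeq: Atf4 at chr15:80255184-80257545, Atf3 at chr1:191170296-191183333, Ddit3 at chr10:127290793-127296291, Trib3 at chr2:152337425-152344060 and Ppp1r15a at chr7:45522917-45526268. Chac1 lies at chr2:119351242-119354326, Asns at chr6:7675165-7693209, Sesn2 at chr4:132492804-132510456, Xbp1 at chr11:5520641-5525993 and Herpud1 at chr8:94386429-94395371. The RefSeq table gave 1 promoter window for each of the 10, of 250 bases before and 50 after the annotated start, and 6 motifs were searched in it on both strands. The C/EBP-ATF response element, the composite site through which ATF4 acts, was searched as TGATGNAA and was found in 5 of the 10 windows, against 3.97% of all 32851 windows of that length. Its holders were Atf3, Trib3, Chac1, Asns and Herpud1. The cyclic AMP response element, TGACGTCA, was found in Ppp1r15a (1.79% of all windows), and the AP-1 site, TGANTCA, in Ddit3 (7.81%). The second form of the ER stress response element, ATTGG and CCACG with 1 base between them, was found in Herpud1 (0.0365%). The first form, CCAAT and CCACG with 9 bases between them (0.119%), and the XBP1 element, TGACGTGG (0.676%), matched in none of the 10. No 2 matches overlapped, and a match or its absence describes the letters of these windows only.

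The windows of 6 genes are shown: all 5 with a C/EBP-ATF match, of which Atf3, Chac1 and Herpud1 rose after SE and Asns and Trib3 did not pass, and that of Ppp1r15a, which rose and has the cyclic AMP element in place of it. Each is written 5′ to 3′ on the strand of the gene, with motif matches in capitals.
Atf3 (GRCm38.p6 chr1:191183284-191183583, minus strand): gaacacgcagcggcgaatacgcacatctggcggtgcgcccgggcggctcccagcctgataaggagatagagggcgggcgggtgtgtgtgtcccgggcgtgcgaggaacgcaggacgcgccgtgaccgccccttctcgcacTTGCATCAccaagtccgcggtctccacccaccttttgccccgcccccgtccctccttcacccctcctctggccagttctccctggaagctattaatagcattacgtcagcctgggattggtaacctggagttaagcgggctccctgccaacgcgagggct
Chac1 (chr2:119350992-119351291, plus strand): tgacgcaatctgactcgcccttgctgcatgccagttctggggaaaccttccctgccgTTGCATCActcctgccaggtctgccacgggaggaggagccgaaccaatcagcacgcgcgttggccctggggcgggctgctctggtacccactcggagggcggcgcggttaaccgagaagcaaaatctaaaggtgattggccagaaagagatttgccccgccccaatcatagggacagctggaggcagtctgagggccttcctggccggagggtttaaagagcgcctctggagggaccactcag
Herpud1 (chr8:94386179-94386478, plus strand): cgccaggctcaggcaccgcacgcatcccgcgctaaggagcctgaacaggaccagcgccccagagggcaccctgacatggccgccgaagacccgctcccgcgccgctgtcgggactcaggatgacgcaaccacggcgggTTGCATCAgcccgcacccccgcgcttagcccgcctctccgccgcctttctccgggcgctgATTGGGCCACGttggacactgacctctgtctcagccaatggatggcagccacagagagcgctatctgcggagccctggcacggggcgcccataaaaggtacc
Ppp1r15a (chr7:45526219-45526518, minus strand): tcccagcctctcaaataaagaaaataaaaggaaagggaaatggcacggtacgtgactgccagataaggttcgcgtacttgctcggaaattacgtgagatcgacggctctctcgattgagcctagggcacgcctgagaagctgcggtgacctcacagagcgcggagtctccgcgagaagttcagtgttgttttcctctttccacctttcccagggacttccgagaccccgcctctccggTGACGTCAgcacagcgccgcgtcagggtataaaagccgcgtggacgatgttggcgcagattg
Asns (chr6:7693160-7693459, minus strand): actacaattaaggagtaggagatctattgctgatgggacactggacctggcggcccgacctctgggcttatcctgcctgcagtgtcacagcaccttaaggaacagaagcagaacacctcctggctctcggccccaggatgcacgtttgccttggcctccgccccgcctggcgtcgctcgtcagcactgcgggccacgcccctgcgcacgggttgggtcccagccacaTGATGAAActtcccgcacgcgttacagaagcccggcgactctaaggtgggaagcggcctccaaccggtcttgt
Trib3 (chr2:152344011-152344310, minus strand): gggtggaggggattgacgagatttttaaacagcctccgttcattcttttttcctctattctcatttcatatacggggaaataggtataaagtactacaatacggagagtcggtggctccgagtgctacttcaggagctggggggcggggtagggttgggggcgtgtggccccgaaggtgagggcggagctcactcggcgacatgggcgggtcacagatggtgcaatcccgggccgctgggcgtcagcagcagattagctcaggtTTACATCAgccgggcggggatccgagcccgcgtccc
The C/EBP-ATF match began 110 bases before the annotated start in Atf3, 193 before it in Chac1, 112 before it in Herpud1 and 23 before it in Asns, and in Trib3 it began at base 15 after it. Atf3, Chac1 and Herpud1 carried the same 8 letters, TTGCATCA, on the strand shown, while Asns carried TGATGAAA and Trib3 TTACATCA. In Herpud1, which encodes an ER membrane protein of degradation, the ER stress element lay closer to the start, at 52 bases before it. The match in Ppp1r15a began 12 bases before the start.

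The first comparison asked how SE changed these genes in each genotype. After SE 7 of the 10 rose in Astro-D2KO mice and 7 of 10 in control mice, and these were the same genes: Atf4, Atf3, Ppp1r15a, Chac1, Sesn2, Xbp1 and Herpud1. None fell in either genotype. Over all genes, 7.49% rose and 12.6% fell in Astro-D2KO mice (20.1% in either direction), and 8.42% rose and 13.7% fell in control mice (22.1%). The median log2 change of the 10 was 0.62 in Astro-D2KO mice and 0.50 in control mice, beside medians over all genes of -0.006 and -0.019. Ddit3, Trib3 and Asns did not pass in either genotype. SE arrays stood entirely above saline arrays for 7 of the 10 in Astro-D2KO mice (9.54% of all genes) and for 5 of the 10 in control mice (8.46%). Without the libraries labelled Astro-D2KO SE replicate 1 and control SE replicate 4, 7 rose and 0 fell in each genotype, with medians of 0.62 and 0.42.

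**Figure D1:**
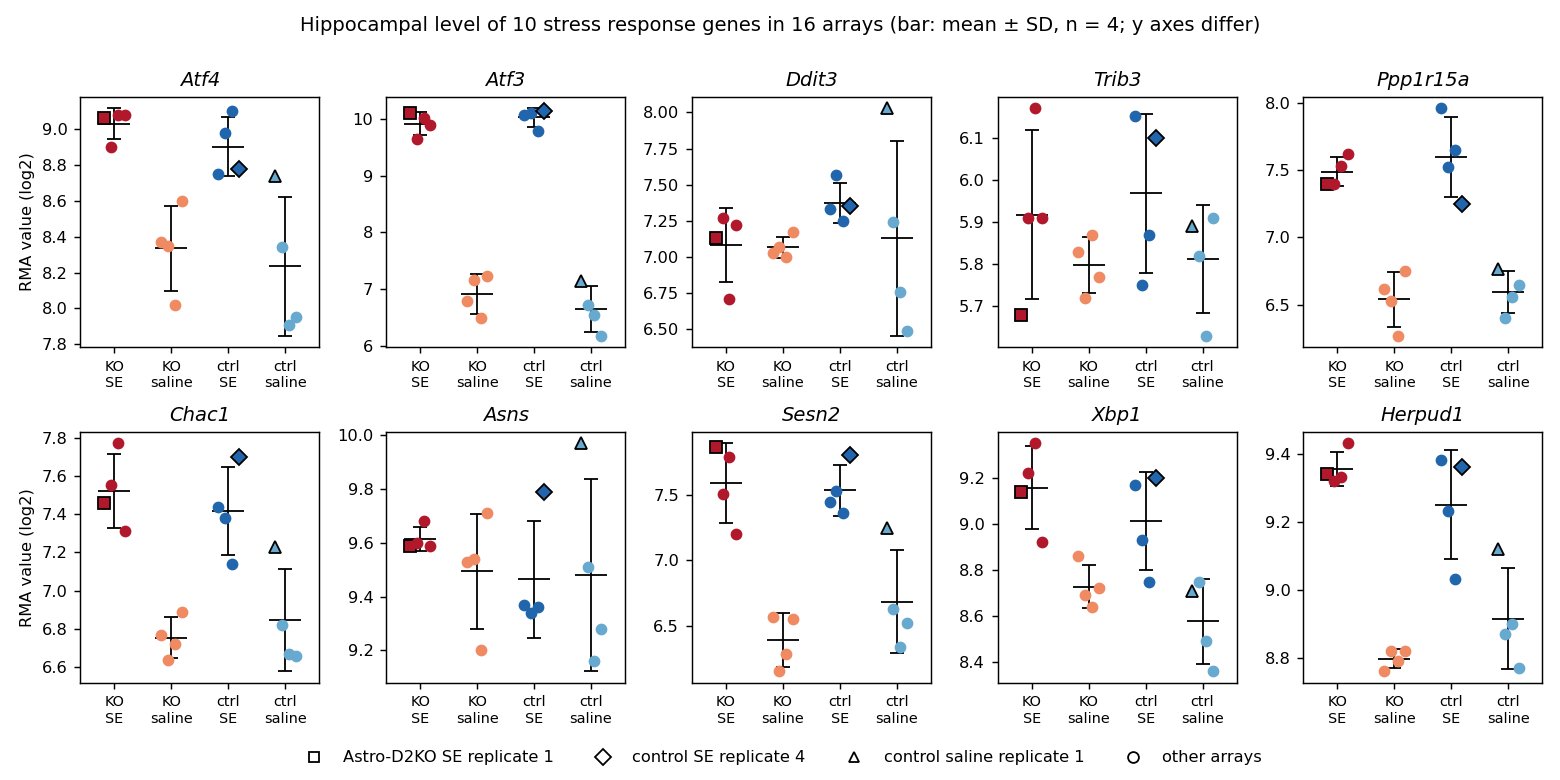
Log2 RMA value (vertical axis, its range set per gene) of the 10 genes in the 16 arrays, by group, with bars for the mean ± SD of 4 arrays. Squares, diamonds and triangles mark Astro-D2KO SE replicate 1, control SE replicate 4 and control saline replicate 1; for Atf3 the SE arrays sit between 9.64 and 10.14 and the saline arrays between 6.18 and 7.24 (KO, Astro-D2KO; ctrl, control).

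Among the transcription factors, Atf3 had by far the largest change. Atf3 encodes a stress-induced factor that binds the same sites as ATF4 and often represses. It stood at 10.10, 9.64, 10.02 and 9.89 in Astro-D2KO SE arrays, against 6.79, 7.17, 6.49 and 7.24 in Astro-D2KO saline arrays. In control mice it stood at 10.07, 10.10, 9.78 and 10.14 after SE, against 7.15, 6.73, 6.55 and 6.18 under saline. All SE arrays lay above all saline arrays by more than the spread within any group. The log2 rise was 2.99 ± 0.18 in Astro-D2KO mice (7.94-fold, adjusted p = 1.23e-08) and 3.37 ± 0.18 in control mice (10.3-fold, adjusted p = 2.61e-09), where ± is the standard error of the fit. It ranked 17th in size of rise among the 22180 genes in Astro-D2KO mice and 8th in control mice.

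Atf4, the central activator of the response, rose far less than Atf3. Its values were 9.06, 8.90, 9.08 and 9.08 in Astro-D2KO SE arrays, against 8.37, 8.35, 8.02 and 8.60 in Astro-D2KO saline arrays. The control SE arrays held 8.75, 8.98, 9.10 and 8.78, against 8.74, 8.34, 7.91 and 7.95 in control saline arrays. The SE and saline arrays did not overlap in either genotype, but in control mice the gap was 0.01 between SE replicate 1 and saline replicate 1 as printed. Atf4 rose by 0.69 ± 0.16 in Astro-D2KO mice (1.62-fold, adjusted p = 0.00397) and by 0.66 ± 0.16 in control mice (1.58-fold, adjusted p = 0.00478).

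Ddit3, which encodes CHOP, a factor downstream of ATF4 that is tied to cell death under lasting ER stress, did not pass. It stood at 7.13, 7.27, 6.71 and 7.22 in Astro-D2KO SE arrays, against 7.03, 7.07, 7.00 and 7.17 in Astro-D2KO saline arrays. The control arrays held 7.33, 7.57, 7.25 and 7.35 after SE, against 8.03, 7.24, 6.76 and 6.49 under saline. The groups overlapped in both genotypes, and control saline replicate 1 was the highest of all 16 arrays. The difference was 0.01 ± 0.22 in Astro-D2KO mice (95% interval -0.46 to 0.49) and 0.24 ± 0.22 in control mice (-0.23 to 0.71). Without control saline replicate 1 the difference in control mice was 0.54 and passed (adjusted p = 0.0197), while in Astro-D2KO mice it was 0.01 (adjusted p = 0.963). Over all alternatives the adjusted p in control mice ran from 0.0197 to 0.948. In control mice the interval leaves room for a rise as large as that of Atf4.

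The feedback and stress enzyme genes moved unequally. Ppp1r15a encodes GADD34, the inducible subunit that directs a phosphatase to eIF2 and so restores protein synthesis. It stood at 7.40, 7.40, 7.53 and 7.62 in Astro-D2KO SE arrays, against 6.62, 6.53, 6.27 and 6.75 in Astro-D2KO saline arrays. In control mice it stood at 7.96, 7.52, 7.65 and 7.25 after SE, against 6.77, 6.40, 6.56 and 6.65 under saline. No SE array overlapped a saline array, and the lowest SE array was the one labelled control SE replicate 4. Ppp1r15a rose by 0.95 ± 0.13 in Astro-D2KO mice (1.93-fold, adjusted p = 7.48e-05) and by 1.00 ± 0.13 in control mice (2.00-fold, adjusted p = 3.90e-05).

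Chac1 encodes an enzyme that degrades glutathione and is an ATF4 target. It stood at 7.46, 7.55, 7.77 and 7.31 in Astro-D2KO SE arrays, against 6.77, 6.64, 6.72 and 6.89 in Astro-D2KO saline arrays. Control arrays held 7.44, 7.38, 7.14 and 7.70 after SE, against 7.23, 6.82, 6.67 and 6.66 under saline. The Astro-D2KO groups were separate, while in control mice SE replicate 3 lay below saline replicate 1. Chac1 rose by 0.77 ± 0.13 in Astro-D2KO mice (1.70-fold, adjusted p = 0.000561) and by 0.57 ± 0.13 in control mice (1.48-fold, adjusted p = 0.00490). Trib3, a pseudokinase induced by ATF4 and CHOP that restrains ATF4, ran from 5.68 to 6.17 in Astro-D2KO SE, from 5.72 to 5.87 in Astro-D2KO saline, from 5.75 to 6.15 in control SE and from 5.63 to 5.91 in control saline. All of these ranges overlapped. Its differences were 0.12 ± 0.11 in Astro-D2KO mice (95% interval -0.10 to 0.35) and 0.16 ± 0.11 in control mice (-0.07 to 0.38), neither of which passed. Its level was under 6.26, the median of all gene means, in each group mean, and whether its probe set was above background is not given by the table.

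The pair tied to amino acid supply split. Sesn2 encodes sestrin 2, a leucine-binding inhibitor of the growth kinase mTORC1. It stood at 7.87, 7.51, 7.79 and 7.20 in Astro-D2KO SE arrays, against 6.57, 6.15, 6.28 and 6.55 in Astro-D2KO saline arrays. In control mice it stood at 7.45, 7.53, 7.36 and 7.81 after SE, against 7.25, 6.63, 6.34 and 6.52 under saline. The groups were separate in both genotypes, with control saline replicate 1 close under the control SE arrays. Sesn2 rose by 1.21 ± 0.18 in Astro-D2KO mice (2.31-fold, adjusted p = 0.000136) and by 0.85 ± 0.18 in control mice (1.80-fold, adjusted p = 0.00221), the second largest change of the 10 in Astro-D2KO mice and the third largest in control mice.

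Asns, which encodes asparagine synthetase and is a classical ATF4 target, did not pass. It stood at 9.59, 9.60, 9.68 and 9.59 in Astro-D2KO SE arrays, against 9.53, 9.54, 9.20 and 9.71 in Astro-D2KO saline arrays. In control arrays the values were 9.37, 9.34, 9.36 and 9.79 after SE, against 9.97, 9.51, 9.16 and 9.28 under saline. The groups overlapped in both genotypes, and the highest array was again control saline replicate 1. The difference was 0.12 ± 0.15 in Astro-D2KO mice (95% interval -0.20 to 0.43) and -0.01 ± 0.15 in control mice (-0.33 to 0.30). The upper bounds lie below the rises of Atf4, 0.69 in Astro-D2KO mice and 0.66 in control mice. The 95% intervals of Atf4 were 0.37 to 1.02 and 0.34 to 0.99, so in Astro-D2KO mice the intervals of Asns and Atf4 overlapped. A test of Asns against Atf4 was not made.

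Both ER genes rose. Xbp1 encodes the factor that IRE1 activates by splicing. Its values were 9.14, 9.22, 9.35 and 8.92 in Astro-D2KO SE arrays, against 8.86, 8.69, 8.64 and 8.72 in Astro-D2KO saline arrays. Its control SE arrays held 9.17, 8.93, 8.75 and 9.20, against 8.71, 8.75, 8.49 and 8.36 in control saline arrays. The Astro-D2KO groups were separate, and in control mice SE replicate 3 and saline replicate 2 had nearly the same level. Xbp1 rose by 0.43 ± 0.12 in Astro-D2KO mice (1.34-fold, adjusted p = 0.0146) and by 0.44 ± 0.12 in control mice (1.35-fold, adjusted p = 0.0116). Leaving out Astro-D2KO SE replicate 3, its highest array, ended the call in Astro-D2KO mice, with a change of 0.36 (adjusted p = 0.0557).

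Herpud1, which carries both the C/EBP-ATF letters and the ER stress element in the window shown above, encodes a scaffold of ER-associated degradation. It stood at 9.34, 9.32, 9.33 and 9.43 in Astro-D2KO SE arrays, against 8.76, 8.82, 8.79 and 8.82 in Astro-D2KO saline arrays. In control mice it stood at 9.38, 9.23, 9.03 and 9.36 after SE, against 9.12, 8.87, 8.90 and 8.77 under saline. The Astro-D2KO arrays were tight and far apart, whereas control SE replicate 3 lay below control saline replicate 1. Herpud1 rose by 0.56 ± 0.087 in Astro-D2KO mice (1.47-fold, adjusted p = 0.000211) and by 0.33 ± 0.087 in control mice (1.26-fold, adjusted p = 0.00970). With only the 2 control groups in the fit, the change of 0.33 did not pass (adjusted p = 0.0559).

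**Figure D2:**
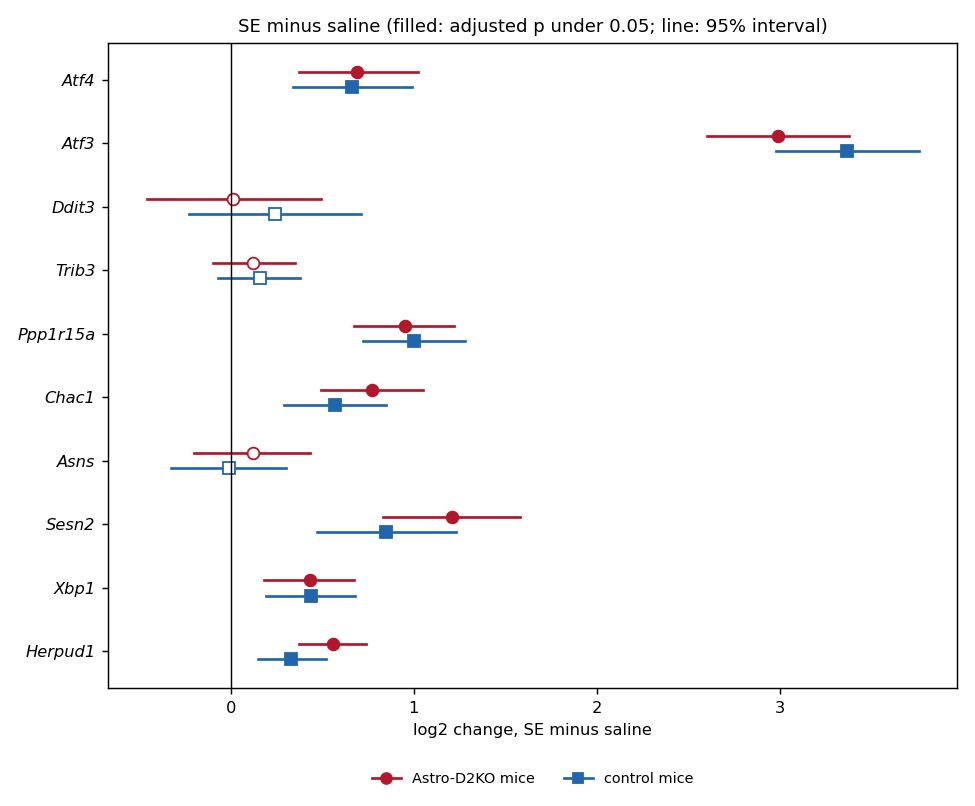
Log2 change, SE minus saline (horizontal axis), of each gene in Astro-D2KO mice (circles) and control mice (squares), with 95% intervals of the limma fit. The 7 genes that rose have filled symbols in both genotypes (adjusted p under 0.05), and Ddit3, Trib3 and Asns are open in both.

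The second set of comparisons asked whether loss of astrocyte Dio2 changed these genes, under saline, after SE or in their response to SE. None of the 10 passed in any of these 3 comparisons, beside 0% of all genes called in each by limma. At an unadjusted p under 0.05 the count was 0 of the 10 each time, beside 6.12% of all genes after SE, 3.99% under saline and 4.65% for the difference of responses. Dio2, the targeted gene, was itself among the genes that limma did not call. With only the 2 saline groups in the limma fit, Dio2 passed (-1.36, adjusted p = 0.015). Without the libraries labelled Astro-D2KO SE replicate 1 and control SE replicate 4, Dio2 passed in limma under saline and after SE. Its differences were then -1.36 under saline (adjusted p = 0.00027) and -2.18 after SE (adjusted p = 1.35e-06). A count of 0 in these comparisons thus does not show absence of a genotype effect. After SE the difference of Astro-D2KO minus control ran from -0.29 for Ddit3 to 0.15 for Asns, with a median of 0.08. Ddit3 averaged 7.08 ± 0.25 in Astro-D2KO SE and 7.38 ± 0.14 in control SE (SD, n = 4 each), a difference of -0.29 with a 95% interval from -0.77 to 0.18. Asns averaged 9.61 ± 0.04 in Astro-D2KO SE and 9.47 ± 0.21 in control SE (interval of the difference -0.17 to 0.46). For Herpud1 the means were 9.35 ± 0.05 in Astro-D2KO SE and 9.25 ± 0.16 in control SE, with a narrower interval of -0.08 to 0.29. Without the libraries labelled Astro-D2KO SE replicate 1 and control SE replicate 4, the differences ran from -0.32 for Ddit3 to 0.26 for Asns, and the lowest adjusted p was 0.592.

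Under saline the difference of Astro-D2KO minus control ran from -0.30 for Sesn2 to 0.27 for Atf3. Sesn2 averaged 6.38 ± 0.21 in Astro-D2KO saline and 6.69 ± 0.40 in control saline (SD, n = 4 each), with a 95% interval of the difference from -0.68 to 0.08. Atf3 averaged 6.92 ± 0.35 in Astro-D2KO saline and 6.65 ± 0.40 in control saline (-0.11 to 0.66). The 2 groups overlapped for all 10 genes, beside 1.27% of all genes with the Astro-D2KO arrays entirely above and 1.34% with them entirely below. After SE the groups also overlapped for all 10, beside 1.53% and 1.40% of all genes.

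The response to SE in Astro-D2KO mice minus that in control mice, which uses all 4 groups and shares its arrays with the comparisons above, ran from -0.38 ± 0.26 for Atf3 to 0.35 ± 0.25 for Sesn2. The 95% intervals were -0.93 to 0.17 for Atf3 and -0.18 to 0.89 for Sesn2. Herpud1 had the lowest unadjusted p of the 10, 0.0858 (adjusted p = 0.998), with a difference of responses of 0.22 ± 0.12 and an interval from -0.04 to 0.48. For Atf4 (0.03, -0.43 to 0.49), Xbp1 (-0.01, -0.36 to 0.34) and Ppp1r15a (-0.06, -0.45 to 0.34) the estimate lay near 0. These intervals do not show that the genotypes respond alike: for every one of the 10 they leave room for a difference of 0.3 on the log2 scale in at least 1 direction. Without the 2 doubted libraries the range was -0.40 for Atf3 to 0.35 for Sesn2.

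**Figure D3:**
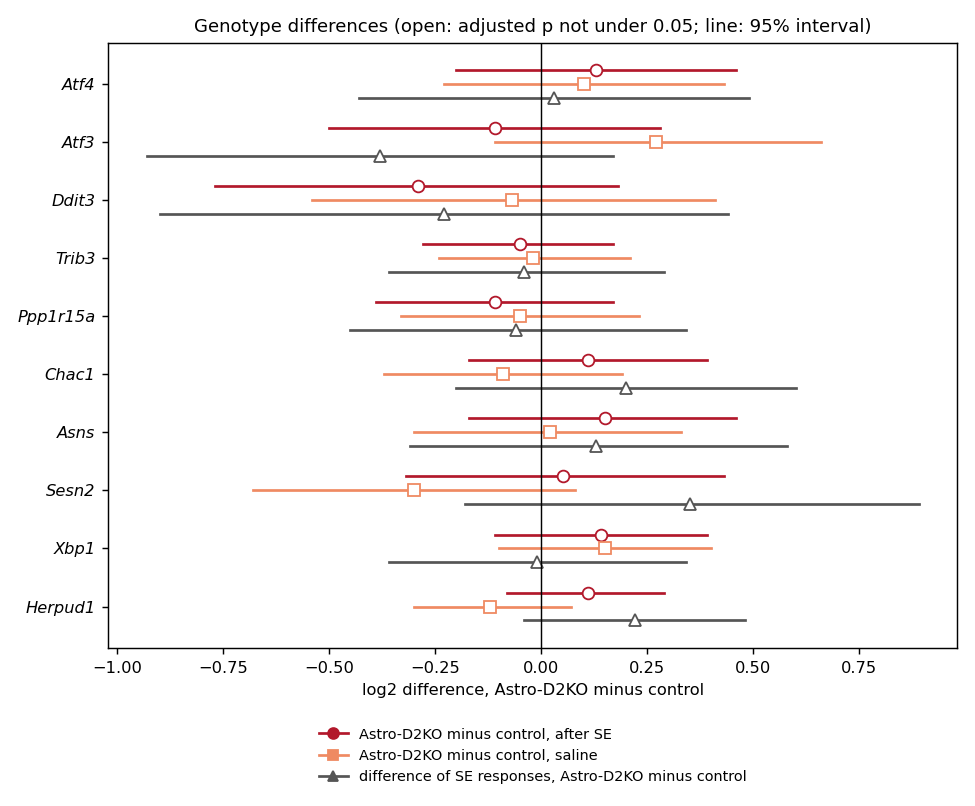
Log2 difference, Astro-D2KO minus control (horizontal axis), of each gene after SE (circles) and under saline (squares), and the difference of the SE responses (triangles), with 95% intervals of the limma fit. All symbols are open (no adjusted p under 0.05) and every interval crosses 0.

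The genes also varied together among arrays of 1 group. Control saline replicate 1 was the highest of its 4 arrays for 8 of the 10 genes, all but Trib3 and Xbp1, and the lowest for 0, while it was the highest for 27.1% of all genes and the lowest for 28.1%. It deviated from the group mean most for Ddit3, at 8.03 against 6.49 to 7.24 in the other control saline arrays, and also for Asns, Sesn2, Atf4 and Atf3. Astro-D2KO saline replicate 4 was the highest of its group for 7 of the 10 (23.1% of all genes). In control saline replicate 1 the mean of the immediate early genes was 7.05, against 6.81 to 6.94 in the other control saline arrays, and that of the choroid plexus markers was 6.63, against 7.13 to 9.22. The part of these levels in the result was not tested. Without control saline replicate 1 the rises in control mice were 0.83 for Atf4, 0.70 for Chac1, 1.04 for Sesn2, 0.40 for Herpud1 and 3.53 for Atf3, and Ddit3 was the single change of call.

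**Figure D4:**
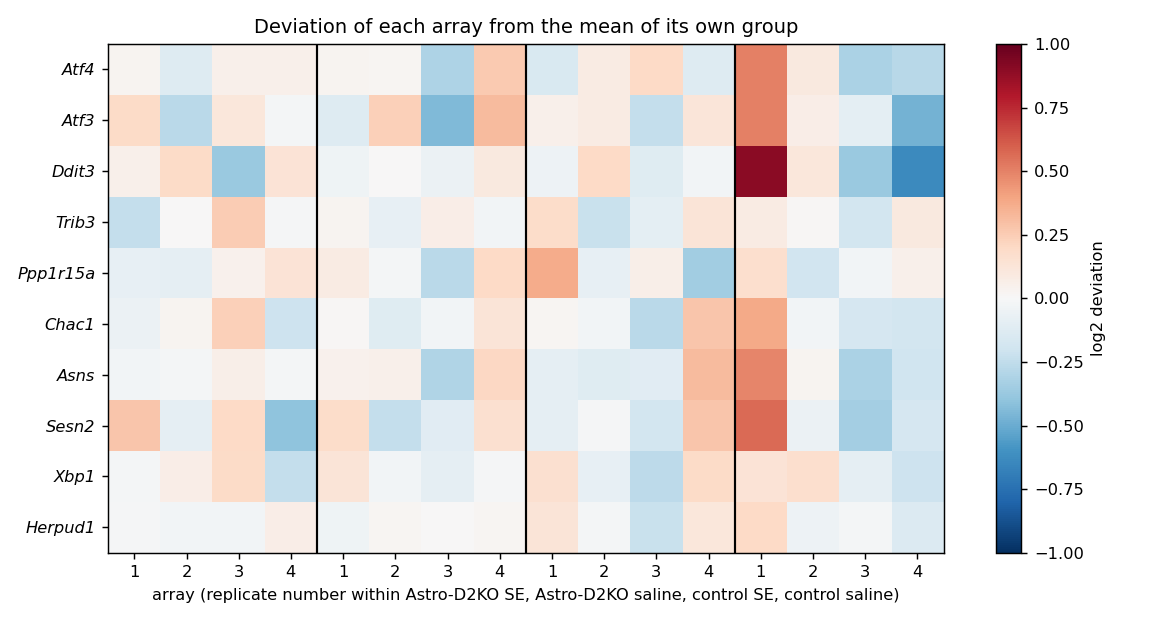
Deviation of each array (columns, by group and replicate number) from the mean of its own group for each gene (rows), in log2 units by colour from -1 to 1. The first column of the last block, control saline replicate 1, is above its group mean for all 10 genes, most for Ddit3.

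The rest of the pathway was described by 9 lists that named 90 further genes, of which 82 were measured. Averaged over genotypes, 25 of the 82 rose (30.5%) and 10 fell (12.2%) after SE, beside 12.1% and 20.6% of all genes (32.6% in either direction). In Astro-D2KO mice 15 rose (18.3%) and 7 fell (8.54%), beside 7.49% and 12.6% of all genes. In control mice 15 rose (18.3%) and 8 fell (9.76%), beside 8.42% and 13.7% of all genes. Under the alternatives 11 to 19 rose and 5 to 7 fell in Astro-D2KO mice, and 13 to 21 rose and 6 to 10 fell in control mice. None passed for genotype under saline, after SE or for the difference of responses. The median change averaged over genotypes was 0.13, against 0.56 for the 10 effectors and -0.008 for all genes.

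Among the 4 eIF2 kinases, averaged over genotypes, 2 rose, 1 fell and 1 did not pass. Eif2ak3, which encodes the ER kinase PERK, rose by 0.59 ± 0.079 in Astro-D2KO mice and by 0.59 ± 0.079 in control mice, with SE arrays between 7.73 and 7.98 and saline arrays between 7.15 and 7.42. Eif2ak1, which encodes the haem-regulated kinase HRI, fell by 0.41 in Astro-D2KO mice and by 0.44 in control mice. Eif2ak4, which encodes the amino acid sensor GCN2, passed in the average alone, with changes of 0.25 in Astro-D2KO mice and 0.18 in control mice. Of the 7 measured genes for eIF2, eIF2B and the constitutive phosphatase regulator, 1 rose: Ppp1r15b, the constitutive partner of Ppp1r15a, stood at 8.48 ± 0.02 in Astro-D2KO SE and 7.73 ± 0.10 in Astro-D2KO saline, and at 8.64 ± 0.12 in control SE and 7.72 ± 0.10 in control saline. It rose in both genotypes (adjusted p = 3.89e-06 in Astro-D2KO and 3.34e-07 in control mice), as Ppp1r15a did. Of the 6 other transcription factors, Cebpg, a partner of ATF4, rose in the average (0.35 in Astro-D2KO and 0.24 in control mice, neither passing alone), and Crebrf fell by 0.69 in Astro-D2KO mice and by 0.64 in control mice.

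ATF4 targets of amino acid synthesis and transport had 6 rises and 0 falls among 13 measured, averaged over genotypes. In each genotype alone 3 rose. Aldh18a1 and Slc7a1 passed in the average alone (adjusted p = 0.0454 and 0.0463). Phgdh, Psat1, Psph, Shmt2, Gpt2, Cth and Slc7a3 did not pass, with averaged changes of -0.24, -0.03, 0.03, -0.16, 0.13, -0.03 and 0.04. Slc7a11, the cystine transporter, rose by 1.08 ± 0.23 in Astro-D2KO mice and 0.89 ± 0.23 in control mice, with 0.48 and 0.52 when its probe sets were averaged, and its partner chain Slc3a2 rose by 0.61 ± 0.11 and 0.45 ± 0.11. Mthfd2, a mitochondrial folate enzyme, changed by 0.52 in Astro-D2KO mice, where it did not pass (adjusted p = 0.110), and rose by 0.67 in control mice (adjusted p = 0.0345, up to 0.115 with an array left out). Among 11 aminoacyl-tRNA synthetases 2 rose and 1 fell in the average, 1 rose and 0 fell in Astro-D2KO mice, and 1 rose and 1 fell in control mice. Eprs, which charges glutamate and proline tRNAs, rose by 1.11 ± 0.14 in Astro-D2KO mice and 1.18 ± 0.14 in control mice. Cars changed by 0.32 and 0.25 and passed in the average alone, and Mars1 changed by -0.20 in Astro-D2KO mice, not passing, and fell by 0.38 in control mice. Of 9 stress mediators downstream of ATF4 and CHOP, 4 rose and 0 fell in the average. In Astro-D2KO mice 5 rose and in control mice 3 rose, with 0 falls in each. The 4 in the average included Tnfrsf10b, a death receptor (0.66 in Astro-D2KO and 0.50 in control mice). They also included Pmaip1 (0.46 and 0.55) and Bcl2l11 (0.49 and 0.44), which encode the BH3-only proteins NOXA and BIM. All group means of Tnfrsf10b (4.68 to 5.38) and Bcl2l11 (5.54 to 6.04) were under 6.26, the median of all gene means. Whether these probe sets were above background is not known here.

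The ER arms of the unfolded protein response were mixed. Of 13 measured ER chaperones and folding enzymes 6 rose and 0 fell, averaged over genotypes. In Astro-D2KO mice alone 3 rose and in control mice alone 4 rose, with 0 falls in each. Hspa5, the chaperone BiP, stood at 9.70 ± 0.06 in Astro-D2KO SE and 8.76 ± 0.06 in Astro-D2KO saline, and at 9.73 ± 0.14 in control SE and 8.59 ± 0.16 in control saline. Sdf2l1, a partner of BiP co-chaperones, rose by 0.76 in each genotype, and the disulfide isomerase gene Pdia6 rose by 0.62 in Astro-D2KO mice and 0.43 in control mice. Of 8 sensors and proteases 1 rose and 3 fell in the average, 1 rose and 2 fell in Astro-D2KO mice, and 1 rose and 3 fell in control mice. Ern1, which encodes IRE1, rose by 0.35 in Astro-D2KO mice and 0.64 in control mice. Mbtps1 and Mbtps2, the Golgi proteases that cut ATF6, fell by 0.54 and 0.41 in Astro-D2KO mice and by 0.59 and 0.28 in control mice. Atf6b changed by -0.05 in Astro-D2KO mice, not passing, and fell by 0.31 in control mice. Of 11 genes of ER-associated degradation 2 rose and 4 fell in the average. In Astro-D2KO mice 0 rose and 3 fell, and in control mice 1 rose and 2 fell. Edem2 and Sel1l, which handle misfolded glycoproteins for export, fell by 0.44 and 0.27 in Astro-D2KO mice and by 0.60 and 0.34 in control mice. Derl1 changed by -0.17 and -0.23 and passed in the average alone, where its call held in 10 of 23 alternatives. Edem1, an XBP1 target, changed by 0.07 in Astro-D2KO mice, not passing, and rose by 0.31 in control mice, where the mean of its probe sets gave 0.13 and did not pass (adjusted p = 0.241), and Ube2j1 (0.16 and 0.20) passed in the average alone.

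**Figure D5:**
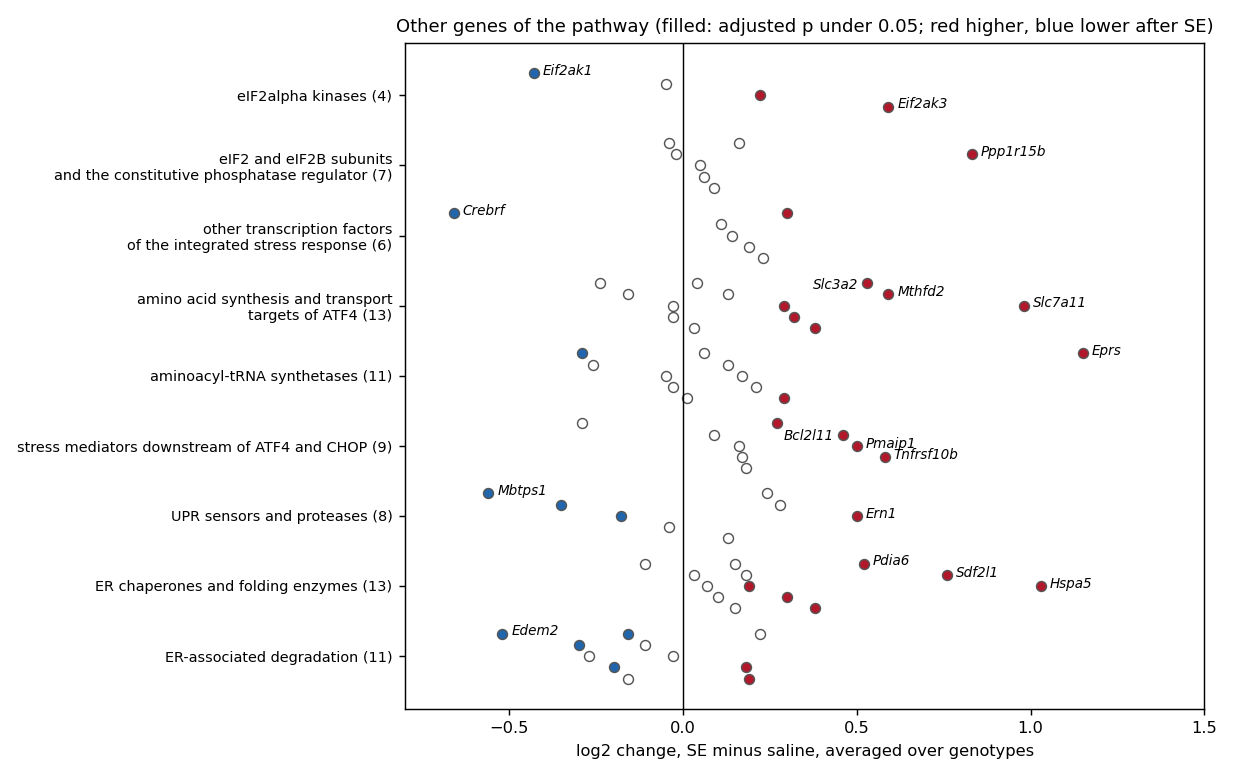
Log2 change, SE minus saline averaged over genotypes (horizontal axis), of the 82 measured pathway genes by list, with the number measured in brackets. Filled symbols passed (red higher, blue lower after SE); Eprs (1.15) and Hspa5 (1.03) have the largest rises and Crebrf (-0.66) the largest fall.

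The genes whose levels followed each effector most closely over the 16 arrays were taken by Pearson correlation, given as a description; arrays of the SE and saline groups enter together, so a shared change with SE raises it. Atf3 was most like Fosb (r = 0.988), Homer1 (0.987) and Ifrd1 (0.986), and Ppp1r15a was most like Junb (0.981), Plk3 (0.976) and Heca (0.975). Fosb and Junb encode AP-1 subunits. Atf4 was closest to Plat (0.967), Ctla2a (0.957) and Ppard (0.953). Chac1 followed Nploc4 (0.965), Hmox1 (0.960) and Slc3a2 (0.959), and Herpud1 followed Slc16a6 (0.970), Angptl4 (0.941) and Slc3a2 (0.941), so that Slc3a2, on the list of ATF4 targets, was among the 3 closest to both. Sesn2 was closest to 2410006H16Rik (0.947), Paxbp1 (0.944) and Zfp655 (0.943), and Xbp1 to Nufip1 (0.956), Lrpap1 (0.937) and Nol10 (0.933). Asns was closest to Eif3c (0.961), Cyb5r1 (0.932) and Aldh1l2 (0.925), whose averaged changes were 0.03, 0.11 and 0.03. Ddit3 was closest to Psma7 (0.888), Gm12739 (0.871) and Prelid3b (0.859), and Trib3 to Gpr143 (0.867), Psmb6 (0.851) and Gm16291 (0.808).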

How the data were processed

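Total RNA of hippocampus was labelled by the Affymetrix protocol, per the labels, for 16 arrays. Per the submitters' processing notes, the authors' deposited values come from RMA, which usually corrects background, normalises by quantiles and summarises probe sets, with no version named. These deposited values were taken as log2, which their span of 1.70 to 13.79 fits but no header states. Of 41345 probe sets, 23521 had 1 gene symbol in the platform annotation, 1814 several and 16010 none, and the highest-mean probe set stood for each of 22180 genes. Arrays carry no read depth, and their number limits the precision.

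A linear model with a mean for each group and moderated errors was fitted with limma 3.58.1 (R 4.3.3). Tests were two-sided and adjusted by Benjamini-Hochberg over all genes within each of 6 contrasts, at 0.05. Genes named were the 10 effectors and, per list, up to 3 rises and 3 falls past the threshold averaged over genotypes, the largest first, and the 3 genes most correlated with each effector. The members and lists were chosen with earlier results of these data known. Promoter windows and positions came from RefSeq, GRCm38.p6. Lists got no set test. Alternatives covered scaling, probe sets, dim genes, variance model, groups fitted, replicate block and arrays left out.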

Additional observations from a re-analysis of the deposited data

Results flagged for a closer look

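Of 40 sets of 4 arrays (10 genes in 4 groups), 3 held an array far from the other 3, where chance alone gives about 1 in 20. Asns stood at 9.79 in the library labelled control SE replicate 4, against 9.34 to 9.37 in control SE replicates 1 to 3. Asns also stood at 9.68 in Astro-D2KO SE replicate 3, against 9.59 to 9.60 in the others of that group, a gap of under 0.1. Atf4 stood at 8.90 in Astro-D2KO SE replicate 2, against 9.06 to 9.08 in the others.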

How the results depend on the processing

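Changes of the 10 genes, their counts and median, and the counts over all genes were recomputed under up to 24 alternatives, or 23 for the averaged contrast and the difference of responses, which have no fit of 2 groups alone. Counts per list, markers and correlations were not recomputed. Of 1414 recomputed changes of the 10 genes, 1411 kept their side of the threshold, and no called change turned its sign. The exceptions were Ddit3 in control mice without control saline replicate 1 (0.54, now passing), Herpud1 in control mice with only the 2 groups compared (0.33, adjusted p = 0.0559) and Xbp1 in Astro-D2KO mice without Astro-D2KO SE replicate 3 (0.36, adjusted p = 0.0557). The effectors that rose numbered 6 or 7 in Astro-D2KO mice and 6 to 8 in control mice, with medians of 0.57 to 0.69 and 0.42 to 0.62. The median genotype difference under saline, -0.03, ran from -0.08 to 0.11. With replicate number as a block, 7 rose and 0 fell in each genotype, and it changed no other call of the 10. The numbers share no documented source: 4 of 24 same-numbered pairs correlated above 0.1 in their deviations, and 4 of 24 correlated best with their own number. Over all genes, the genotype counts of 0 became 1 lower under saline with only the 2 groups compared and 1 lower without both doubted libraries, in both cases Dio2. After SE they became 1 higher and 4 lower without both libraries, and ran from 0 to 1 higher and 0 to 1 lower with 1 array left out. The difference of responses gained 1 higher gene without both, Serpinb2, named after its value was seen. The same alternatives were run, after seeing the data, on the 27 named pathway genes in the 3 SE contrasts: 61 of 81 changes kept their call in all, none turned its sign, and 20 lost or gained it in at least 1. Calls were lost, when single arrays of the groups compared were left out, for Mthfd2, Mars1, Bcl2l11 and Mbtps2 in control mice (adjusted p up to 0.115, 0.0869, 0.0874 and 0.0602 over all alternatives), for Pmaip1 and Sel1l in Astro-D2KO mice (up to 0.0979 and 0.107), and for Eif2ak4, Cars, Atf6b and Derl1 in the average (up to 0.104, 0.0842, 0.0603 and 0.102). The replicate block ended the calls of Mthfd2 in control mice, Sel1l in Astro-D2KO mice and Derl1 in the average. Edem1 lost its call in control mice and in the average with probe sets averaged. Leaving out dim genes removed Trib3, and 9 of the 10 stayed. Among the named pathway genes it removed Tnfrsf10b and Bcl2l11. Array values near background cannot be told from it here.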

Other observations

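The library labelled control SE replicate 4 had the lowest mean of the 7 immediate early genes among the SE arrays, 9.65, against 10.20 to 10.58 in the Astro-D2KO SE arrays and 10.60 to 10.85 in control SE replicates 1 to 3. Its mean of the 10 stress effectors was 8.35, the highest of the SE arrays but close to Astro-D2KO SE replicate 3 at 8.34. The remaining SE arrays ran from 8.13 to 8.31. Within it, Atf3 (10.14), Chac1 (7.70), Sesn2 (7.81), Xbp1 (9.20) and Asns (9.79) were the highest of the control SE group, while Ppp1r15a (7.25) was the lowest. These 5 of the 10 highest and 1 lowest stand beside 30.7% and 27.7% of all genes in that array. Astro-D2KO SE replicate 3 was likewise the highest of its group for 5 of the 10 (24.7% of all genes).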
